A study of Mus musculus with 10 samples.

Results

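The genes described here are the transcription factors Nr4a1, Nr4a2, Nr4a3, Egr1, Egr2 and Egr3 of the Nr4a and Egr families, together with Rcan1. They were measured in mouse dendritic cells grown from bone marrow. The factors were grouped as calcium-induced, a name that is not a result of these data. The members were all probe sets (groups of short probes for a transcript) that carried 1 of these 7 gene symbols in the platform annotation. There were 11 such probe sets among 22690, of which 7 passed the filter on dim signals. These 7 tested members are probe sets of 5 genes, so Nr4a2 and Egr2 each count more than once in shares and medians. Each of the 10 arrays held a different condition. The CD14-deficient cells were cultured with LPS and thapsigargin for 48 or 60 h, with LPS alone for 48 or 60 h, or unstimulated, and the wild-type cells had the same 5 conditions. LPS, a component of the bacterial cell wall, was given at 1 µg/ml and thapsigargin at 50 nM, and the unstimulated cells were harvested 24 h after plating. All cultures came from C57BL/6 bone marrow grown in medium containing supernatant of B16 tumour cells that secrete GM-CSF, and cells were used once most of them carried CD11c. The labels do not say how many mice gave each culture. No condition was repeated and no culture had thapsigargin alone. The 48 and 60 h arrays of a condition are therefore given singly throughout.

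CD14 is the co-receptor that hands LPS to TLR4 and, in dendritic cells, is also needed for the calcium influx that follows LPS. A rise in cytosolic calcium activates the phosphatase calcineurin, which lets the transcription factor NFAT enter the nucleus. Thapsigargin inhibits SERCA, the pump that refills the calcium stores, and so gives cells a calcium signal that needs no receptor. The Nr4a genes encode orphan nuclear receptors, and the Egr genes encode zinc-finger factors. Both families are immediate early genes, which stimulated cells switch on within the first hour and usually switch off again. Rcan1 encodes an inhibitor of calcineurin and is itself a target of calcineurin and NFAT. At 48 and 60 h the arrays show what was left of these responses late in culture.

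Cd14 followed the genotype labels, with a scaled signal of 1.85 to 7.35 on the CD14-deficient arrays, against 1499 on the unstimulated wild-type array and 15538 to 17729 on the stimulated wild-type arrays. All 12 dendritic cell markers on the list were measured on every array and none was at the floor. Of 10 measured macrophage markers, 6 to 10 exceeded the pooled median on each array, whereas 0 of 7 T and NK cell markers did on any. These counts do not tell dendritic cells from macrophages. In arrays of cell cultures, fewer cells of a type and less RNA per cell cannot be told apart. The arrays of CD14-deficient cells under LPS stood apart from one another. At 48 and 60 h, 2093 of the 11655 tested probe sets were at least 2-fold apart in that condition, against 309 (2.65%) in CD14-deficient cells with thapsigargin, 199 (1.71%) in wild-type cells with thapsigargin and 947 (8.13%) in wild-type cells under LPS. The lowest yields of labelled cRNA, 15 and 19 µg, were those of CD14-deficient cells under LPS at 48 h and of wild-type cells under LPS at 60 h. On these arrays the 18S ribosomal RNA control probe sets read 114 to 385 and 217 to 685, against 1426 to 12656 on the others. They read 6642 to 10022 in CD14-deficient cells under LPS at 60 h and 7886 to 12656 in unstimulated cells. The remaining arrays read 1426 to 7417. The CD14-deficient LPS arrays of 48 and 60 h thus differed widely in this control. Fits that leave out the arrays of lowest yield are described in the last section. What part the yield or the 18S signal had in the results was not tested. The sum of 10 measured macrophage markers was 9935 at 48 h and 28742 at 60 h in CD14-deficient cells under LPS. That of the 12 dendritic cell markers was 105354 and 72567 on those arrays, against 60326 to 89735 on all others. Single dendritic cell markers did not all follow their sum. Flt3 read 1149 at 48 h and 334 at 60 h there, whereas Itgax read 892 and 6941. The summed signal of 5 B cell markers was 526 and 277 on those arrays, against 77.8 to 168 on all others.

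Cyclic AMP reaches the Nr4a genes mainly through the factor CREB, and the promoter of Nr4a1 is known for repeats of its binding element. The 250 bases before the RefSeq start site of each Nr4a gene are shown because the same short run recurs in all of them. The letters searched were TGACG, the core of the element, on either strand, so that CGTCA is the same match read on the opposite strand, and matches are in capitals. Coordinates are those of GRCm38.p6 and sequences are 5′ to 3′ on the strand of the gene, at chr15:101266596-101266845 (plus) for Nr4a1, chr2:57124004-57124253 (minus) for Nr4a2 and chr4:48045055-48045304 (plus) for Nr4a3.
Nr4a1: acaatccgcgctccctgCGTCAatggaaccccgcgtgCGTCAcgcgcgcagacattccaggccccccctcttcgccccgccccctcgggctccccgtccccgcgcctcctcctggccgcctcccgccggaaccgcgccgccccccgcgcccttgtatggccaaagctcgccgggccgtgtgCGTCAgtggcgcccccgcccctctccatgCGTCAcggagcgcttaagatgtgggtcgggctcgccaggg
Nr4a2: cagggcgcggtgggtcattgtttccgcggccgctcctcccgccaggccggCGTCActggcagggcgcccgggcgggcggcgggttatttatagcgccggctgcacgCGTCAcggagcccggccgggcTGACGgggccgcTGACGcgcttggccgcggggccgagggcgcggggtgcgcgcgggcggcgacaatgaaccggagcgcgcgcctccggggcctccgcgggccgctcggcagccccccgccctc
Nr4a3: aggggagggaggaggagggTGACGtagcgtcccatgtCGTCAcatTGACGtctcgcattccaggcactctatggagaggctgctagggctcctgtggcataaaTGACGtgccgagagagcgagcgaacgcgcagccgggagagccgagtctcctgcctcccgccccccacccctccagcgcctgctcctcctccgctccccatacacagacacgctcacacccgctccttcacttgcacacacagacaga
Each of the 3 windows held 4 matches. Of 32851 windows of the same length compared in the RefSeq promoter table, 17.8% held at least 1 match and 45 (0.137%) held 4 or more. The full palindrome TGACGTCA, which contains the shorter run on both strands, was in none of the 3 windows. The core of an NFAT site, GGAAA, occurred once in the Nr4a2 window and not in the other windows, and 55.6% of all windows held at least 1. These matches describe letters and not binding.

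Nr4a1, which encodes Nur77 and marks recent activation in lymphocytes and myeloid cells, was lowest in CD14-deficient cells under LPS alone on the stimulated arrays. In scaled MAS5 signal, an intensity per probe set without a physical unit, the single Nr4a1 probe set (1416505_at) read 344 at 48 h and 436 at 60 h in CD14-deficient cells with LPS and thapsigargin, against 61.5 and 29.8 in CD14-deficient cells with LPS alone. The unstimulated CD14-deficient cells read 95.1. In wild-type cells the signal was 228 and 352 with LPS and thapsigargin, 182 and 286 with LPS, and 53.0 without stimulation. Both CD14-deficient arrays with LPS alone lay below the unstimulated CD14-deficient array, and the other 6 stimulated arrays all lay above it. Within wild-type cells the arrays with and without thapsigargin interleaved.

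Thapsigargin with LPS gave 5.59-fold (48 h) and 14.6-fold (60 h) higher Nr4a1 signal than LPS alone in CD14-deficient cells. Both of these LPS readings were above the floor of 13.4 but under the filter of 99.2. The size of any ratio to them therefore rests on dim signals. In the linear model of all 10 arrays, the log2 change was 3.18 ± 0.46 (SE; limma, adjusted p = 0.0238), and it ranked 25 from the top of 11655 probe sets. In wild-type cells the ratios were 1.25 and 1.23, with a log2 change of 0.31 ± 0.46 (adjusted p = 0.869). The difference between these effects was 2.86 ± 0.65 on the log2 scale. It did not pass the threshold (adjusted p = 0.240), although at both times the genotypes differed in their ratio by more than 2-fold. Without any 1 of the 8 stimulated arrays, this difference ran from 2.07 to 3.66 on the log2 scale. Under LPS alone, Nr4a1 was 2.96-fold and 9.60-fold lower in CD14-deficient than in wild-type cells, a log2 change of −2.41 ± 0.46 (adjusted p = 0.0460). This comparison and the thapsigargin effect use the same CD14-deficient LPS arrays.

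The Nr4a1 calls rest on a small design. The thapsigargin effect in CD14-deficient cells kept its sign without any 1 of the 8 stimulated arrays, with log2 changes of 2.38 to 3.97. The call was lost without any 1 array outside the CD14-deficient LPS pair. The genotype difference under LPS ran from −3.21 to −1.62 in these fits, and its call was lost in the same way. Leaving out an array lowers the residual degrees of freedom to 2, against 3 in the full fit. It also takes the 48 to 60 h departure of that condition out of the residual spread. A call kept without a CD14-deficient LPS array is therefore no check on the result. Without the filter on dim probe sets the adjusted p was 0.0895 for thapsigargin and 0.145 for genotype, and without scaling that for genotype was 0.0531. Nr4a1 in CD14-deficient cells with LPS and thapsigargin was 1.51-fold and 1.24-fold higher than in wild-type cells under the same treatment (log2 difference 0.45 ± 0.46, adjusted p = 1.00).

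**Figure D1:**
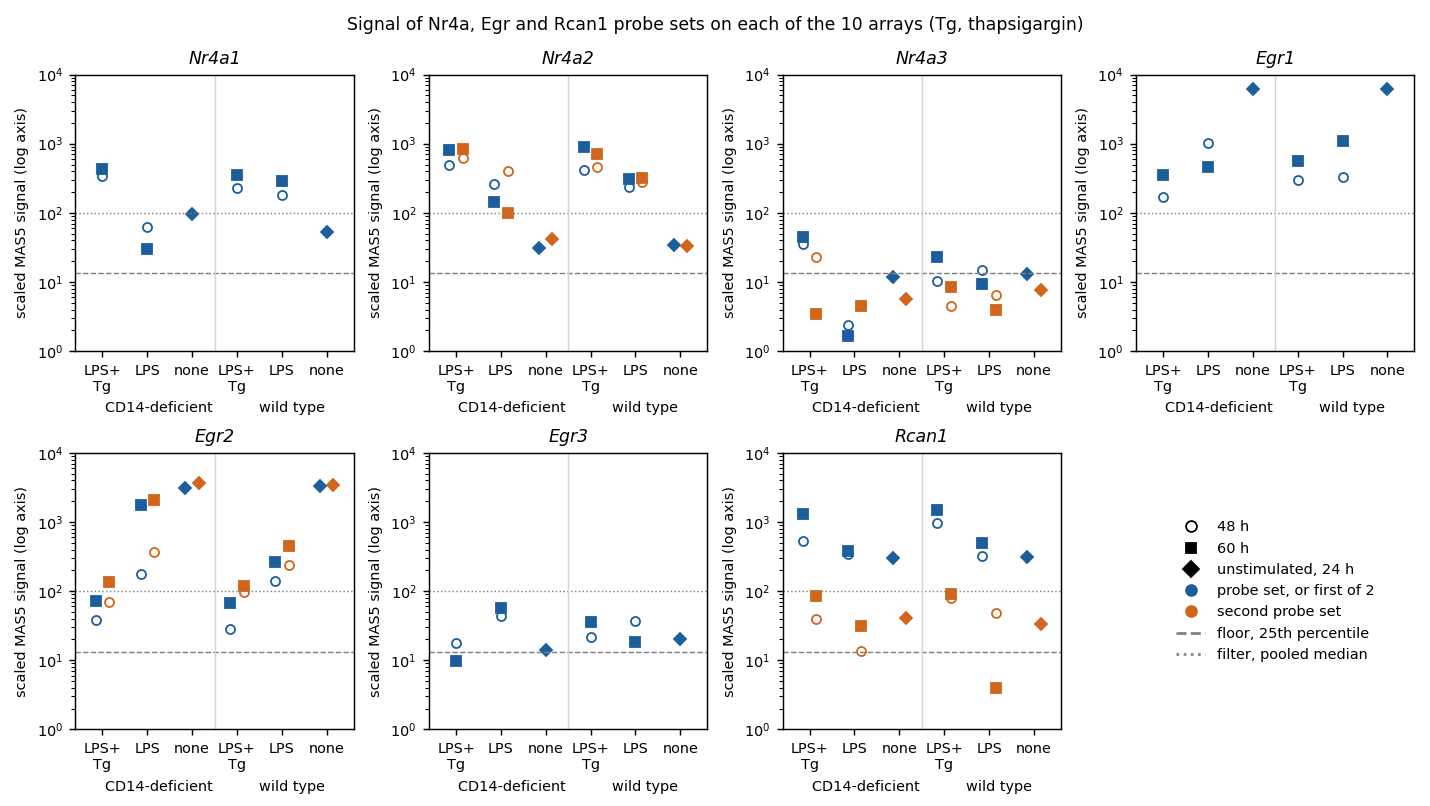
Scaled MAS5 signal (log axis) of each of the 11 probe sets on each of the 10 arrays, by genotype and treatment, with open circles for 48 h, filled squares for 60 h and diamonds for unstimulated cells; the dashed line is the floor of 13.4 and the dotted line the filter at 99.2. Nr4a1 reads 61.5 and 29.8 in CD14-deficient LPS cells and 182 to 436 on the other stimulated arrays, while both Egr2 probe sets are highest in unstimulated cells and lowest with thapsigargin.

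Nr4a2, which encodes Nurr1, a factor known from dopamine neurons and from inflamed myeloid cells, was lowest without stimulation and higher on every stimulated array. Probe set 1450749_a_at read 484.5 and 808 in CD14-deficient cells with LPS and thapsigargin, against 261 and 142 with LPS alone and 31.5 unstimulated. The wild-type cells read 418.5 and 894 with LPS and thapsigargin, 240 and 307 with LPS, and 34.7 unstimulated. Thapsigargin arrays lay above LPS arrays in both genotypes with no overlap, which was so in the higher direction for 27.5% of all tested probe sets in CD14-deficient cells and 29.1% in wild-type cells.

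The other Nr4a2 probe set, 1450750_a_at, was also higher with thapsigargin than with LPS alone in both genotypes. It read 613 and 827 in CD14-deficient cells with LPS and thapsigargin, against 406 and 100.4 with LPS alone and 42.0 unstimulated. The wild-type cells read 462 and 704 with LPS and thapsigargin, 280.3 and 317 with LPS, and 33.5 unstimulated. The CD14-deficient LPS arrays were 4.04-fold apart, with 48 h the higher, and the 60 h array was below both wild-type LPS arrays. Over the 10 arrays the log2 signals of the Nr4a2 probe sets had a Pearson r of 0.98, as a description of probes for the same gene.

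Nr4a2 did not pass the threshold for thapsigargin in CD14-deficient cells, where the log2 changes were 1.70 ± 0.47 (adjusted p = 0.0829) and 1.82 ± 0.64 (adjusted p = 0.134) in limma. The ratios were 1.86 and 5.71 at 48 and 60 h for the first probe set and 1.51 and 8.24 for the second. In wild-type cells the log2 changes were 1.17 ± 0.47 and 0.93 ± 0.64 (adjusted p = 0.523 and 0.682). The differences between genotypes were 0.53 ± 0.67 and 0.88 ± 0.91 (adjusted p = 0.763 and 0.702). Under LPS alone, CD14-deficient cells differed from wild type by log2 −0.50 ± 0.47 and −0.56 ± 0.64, with 1.09-fold and 1.45-fold higher signals at 48 h and 2.17-fold and 3.16-fold lower signals at 60 h. The sign of that genotype difference therefore changed with the time, unlike that of Nr4a1.

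Nr4a3, which encodes NOR1, the remaining receptor of the family, was dim. Probe set 1421079_at read 35.5 and 44.2 in CD14-deficient cells with LPS and thapsigargin, against 2.40 and 1.65 with LPS alone and 11.7 unstimulated. The wild-type cells read 10.2 and 22.9 with LPS and thapsigargin, 14.7 and 9.49 with LPS, and 13.0 unstimulated. Both thapsigargin arrays of CD14-deficient cells were above all others, yet no array reached the filter of 99.2, so the probe set was not tested. Against the floor of 13.4, set at the pooled 25th percentile of signal, thapsigargin gave at least 2.65-fold and at least 3.30-fold higher signal in CD14-deficient cells. The other Nr4a3 probe set, 1421080_at, exceeded the floor on 1 array, at 23.1 in CD14-deficient cells with LPS and thapsigargin at 48 h, and read 3.43 at 60 h.

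The Egr signals of CD14-deficient cells were lower with thapsigargin than with LPS alone. Egr1, which responds to serum, growth factors and calcium through serum response elements, was bright on the unstimulated arrays and lower on every stimulated array. Its probe set (1417065_at) read 168 and 355 in CD14-deficient cells with LPS and thapsigargin, against 1027 and 465 with LPS alone and 6096 unstimulated. Wild-type signals were 300 and 567 with LPS and thapsigargin, 333 and 1102 with LPS, and 6198 unstimulated. The thapsigargin arrays were below both LPS arrays in CD14-deficient cells, while in wild-type cells the arrays overlapped.

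Egr1 passed no test of thapsigargin. Its log2 change was −1.50 ± 0.64 in CD14-deficient cells (adjusted p = 0.193), with 6.11-fold lower signal at 48 h and 1.31-fold lower at 60 h. In wild-type cells the change was −0.55 ± 0.64 (adjusted p = 0.826), and the difference between genotypes was −0.94 ± 0.91 (adjusted p = 0.681). Under LPS alone, the genotypes differed in opposite directions at the 2 times. CD14-deficient cells were 3.09-fold higher at 48 h and 2.37-fold lower at 60 h.

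Egr2, which holds macrophages and lymphocytes in a restrained state and is an NFAT target in T cells, had the widest range of the tested members as a ratio of highest to lowest signal, while Egr1 spanned more signal units. The 250 bases before the lowest-placed RefSeq start site with the most TGACG matches, 1 of 5 windows listed, are shown for comparison with the Nr4a promoters, at chr10:67537619-67537868 (plus, GRCm38.p6).
Egr2: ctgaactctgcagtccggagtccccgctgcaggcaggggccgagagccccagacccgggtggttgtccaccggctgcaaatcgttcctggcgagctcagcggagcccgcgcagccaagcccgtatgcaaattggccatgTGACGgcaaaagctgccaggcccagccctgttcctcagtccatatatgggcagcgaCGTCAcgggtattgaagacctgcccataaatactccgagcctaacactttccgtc
It held 2 matches to TGACG or its reverse complement, in capitals, and 1 match to GGAAA. Another of the 5 windows, at chr10:67537316-67537565, held 3 matches to GGAAA and 0 to TGACG. At least 2 matches to TGACG were in 3.9% of all windows. None of the windows listed for Nr4a1, Nr4a2, Nr4a3, Egr2 or Rcan1 held AAAGGTCA, the element bound by Nr4a receptors (in 1.34% of all windows), or the Egr element GCGTGGGCG (in 0.536%).

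Both Egr2 probe sets fell with thapsigargin in CD14-deficient cells. Probe set 1427682_a_at read 38.4 and 72.0 in CD14-deficient cells with LPS and thapsigargin, against 177 and 1746 with LPS alone and 3054 unstimulated. Wild-type signals were 28.7 and 67.8 with LPS and thapsigargin, 138 and 262 with LPS, and 3261 unstimulated. All 4 thapsigargin arrays were below all 4 LPS arrays, and the 60 h CD14-deficient LPS array stood far above the other LPS arrays. Probe set 1427683_at read 69.3 and 134 in CD14-deficient cells with LPS and thapsigargin, against 370.2 and 2054 with LPS alone and 3700.2 unstimulated. In wild-type cells it read 96.99 and 118 with LPS and thapsigargin, 237 and 446 with LPS, and 3459 unstimulated. Here too all 4 thapsigargin arrays were below all 4 LPS arrays, and the log2 signals of the Egr2 probe sets had a Pearson r of 0.99 over the 10 arrays.

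The thapsigargin effect on Egr2 in CD14-deficient cells was −3.40 ± 0.61 on the log2 scale for 1427682_a_at (limma, adjusted p = 0.0332) and −3.18 ± 0.50 for 1427683_at (adjusted p = 0.0267). These ranked 19 and 29 from the lowest of 11655 probe sets. The signals were 4.62-fold and 5.34-fold lower at 48 h and 24.2-fold and 15.3-fold lower at 60 h. All thapsigargin readings of 1427682_a_at, and those of 1427683_at at 48 h, were under the filter of 99.2. The size of ratios to them therefore rests on dim signals. In wild-type cells the log2 changes were −2.11 ± 0.61 (adjusted p = 0.394) and −1.60 ± 0.50 (adjusted p = 0.435), with signals 2.45-fold to 4.82-fold lower over both times. The differences between genotypes, −1.29 ± 0.86 and −1.57 ± 0.71, did not pass (adjusted p = 0.544 and 0.400).

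As for Nr4a1, the Egr2 effects in CD14-deficient cells kept their sign without any 1 of the 8 stimulated arrays, with log2 changes of −4.54 to −2.26. The calls were lost without any 1 array outside the CD14-deficient LPS pair. Without an array of that pair, its 48 to 60 h departure drops out of the residual spread. Calls kept in those fits are therefore no check on the result. Without the filter the adjusted p was 0.130 for 1427682_a_at and 0.106 for 1427683_at, and with no term for time it was 0.0823 for 1427682_a_at. The CD14-deficient LPS arrays were 9.85-fold and 5.55-fold apart for the 2 probe sets, with 60 h the higher. The macrophage marker sum moved with Egr2 on some arrays. At 48 and 60 h it was 17368 and 15138 in CD14-deficient cells with thapsigargin and 9935 and 28742 in those with LPS alone. In wild-type cells it was 19728 and 16512 with thapsigargin and 33222 and 26771 with LPS alone. It was 43868 in unstimulated CD14-deficient cells and 38541 in unstimulated wild-type cells, and its part in the Egr2 levels was not tested. The summed signal of 8 measured neutrophil markers followed the treatments in both genotypes, as Egr2 did. It was 774 and 713 at 48 and 60 h in CD14-deficient cells with thapsigargin, 1912 and 2270 in those with LPS alone and 10622 in unstimulated ones. In wild-type cells it was 673 at both times with thapsigargin, 1993 and 1812 with LPS alone and 8864 unstimulated, and 1 to 4 of the 8 markers were at or under the floor on each array. S100a8 made up most of this sum on every array, at 525 and 499 in CD14-deficient cells with thapsigargin and 1242 and 1812 with LPS alone. The other markers did not all follow. In the same cells Ltf read 53.4 and 36.4 with thapsigargin and 8.57 and 16.1 with LPS alone. Camp was higher under LPS than unstimulated in both genotypes. The part of these markers in the Egr2 levels was not tested either.

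Egr3, which acts beside Egr2 in lymphocytes, did not reach the filter on any array and was not tested. Its probe set (1421486_at) read 17.5 and 9.91 in CD14-deficient cells with LPS and thapsigargin, against 44.1 and 56.5 with LPS alone and 14.1 unstimulated. In wild-type cells it read 21.6 and 36.3 with LPS and thapsigargin, 36.6 and 18.6 with LPS, and 20.2 unstimulated. In CD14-deficient cells the thapsigargin arrays were below both LPS arrays, while in wild-type cells the arrays overlapped. Thapsigargin gave 2.52-fold lower signal at 48 h in CD14-deficient cells and, with the 60 h array under the floor, at least 4.21-fold lower signal at 60 h.

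Rcan1 has an internal promoter with clustered NFAT sites from which calcineurin raises a shorter isoform. Which isoforms the Rcan1 probe sets detect is not established here. RefSeq lists 2 windows for the gene, and the one with GGAAA matches, at chr16:92400079-92400328 (minus, GRCm38.p6), is shown because it holds 3 of them, in capitals with the reverse complement TTTCC.
Rcan1: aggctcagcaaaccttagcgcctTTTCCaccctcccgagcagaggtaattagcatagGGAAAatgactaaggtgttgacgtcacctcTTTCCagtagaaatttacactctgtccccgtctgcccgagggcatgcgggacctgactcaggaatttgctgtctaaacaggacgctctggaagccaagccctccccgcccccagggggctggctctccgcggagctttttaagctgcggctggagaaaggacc
At least 3 matches occurred in 6.39% of all windows, and the other Rcan1 window held none. The window also held 1 full palindrome TGACGTCA, found in 1.55% of windows, which counts as 2 overlapping matches to TGACG.

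Rcan1 had higher signal with thapsigargin at both times in both genotypes. Probe set 1416600_a_at read 540 and 1297 in CD14-deficient cells with LPS and thapsigargin, against 346 and 380 with LPS alone and 304 unstimulated. In wild-type cells it read 966 and 1476 with LPS and thapsigargin, 327 and 494 with LPS, and 310 unstimulated. Every thapsigargin array was above every array without it, and the LPS arrays were 1.06-fold to 1.60-fold above the unstimulated array of their genotype. The ratios with thapsigargin were 1.56 and 3.42 in CD14-deficient cells and 2.96 and 2.98 in wild-type cells. The log2 changes were 1.21 ± 0.29 in CD14-deficient cells (limma, adjusted p = 0.0630) and 1.57 ± 0.29 in wild-type cells (adjusted p = 0.217), and neither passed the threshold. The adjustment runs over all probe sets, of which 3315 had an unadjusted p under 0.05 in CD14-deficient cells and 1098 in wild-type cells.

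The Rcan1 effects differed between genotypes by log2 −0.36 ± 0.41 (adjusted p = 0.728). The dimmer probe set, 1416601_a_at, was below the filter on all arrays. It read 39.0 and 86.0 in CD14-deficient cells with LPS and thapsigargin, against 13.4 and 30.8 with LPS alone and 41.1 unstimulated, and in wild-type cells 78.8 and 89.5 with LPS and thapsigargin, 48.4 and 3.93 with LPS and 33.9 unstimulated. Its 3 highest readings were all with thapsigargin, and its log2 signals had a Pearson r of 0.67 with those of the brighter probe set.

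Set side by side, thapsigargin raised 1 member probe set in CD14-deficient cells (Nr4a1) and lowered 2 (both of Egr2), of 7 tested. Over all 11655 tested probe sets, 6.73% were called in limma at an adjusted p under 0.05, 3.68% higher and 3.05% lower. Counting instead signals at least 2-fold apart in the same direction at both 48 and 60 h also counted Nr4a1 higher and both Egr2 probe sets lower, against 7.57% of all (3.31% higher and 4.26% lower). The thapsigargin and LPS arrays did not overlap for any of the 7 members, 4 higher and 3 lower, which held for 53.5% of all probe sets (26.1% lower). The median log2 change of the 7 members was 1.21, against 0.00 for all probe sets. In wild-type cells limma called 0 of 7 members and 0 of 11655 probe sets, although 4 members and 1098 probe sets had an unadjusted p under 0.05. There the 2-fold rule counted 3 of 7 members, Rcan1 higher and both Egr2 probe sets lower, against 2.51% of all (0.944% higher and 1.57% lower). The arrays did not overlap for 5 of 7, 3 higher and 2 lower, against 45.3% of all (16.2% lower). The interaction of genotype and thapsigargin was called for 0 members and 0 probe sets in limma, with 1 member (Nr4a1) and 1586 probe sets at an unadjusted p under 0.05. A difference of at least 2-fold in the same direction at both times was counted for 1 member higher and 1 lower, against 5.38% of all (2.29% higher and 3.09% lower).

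**Figure D2:**
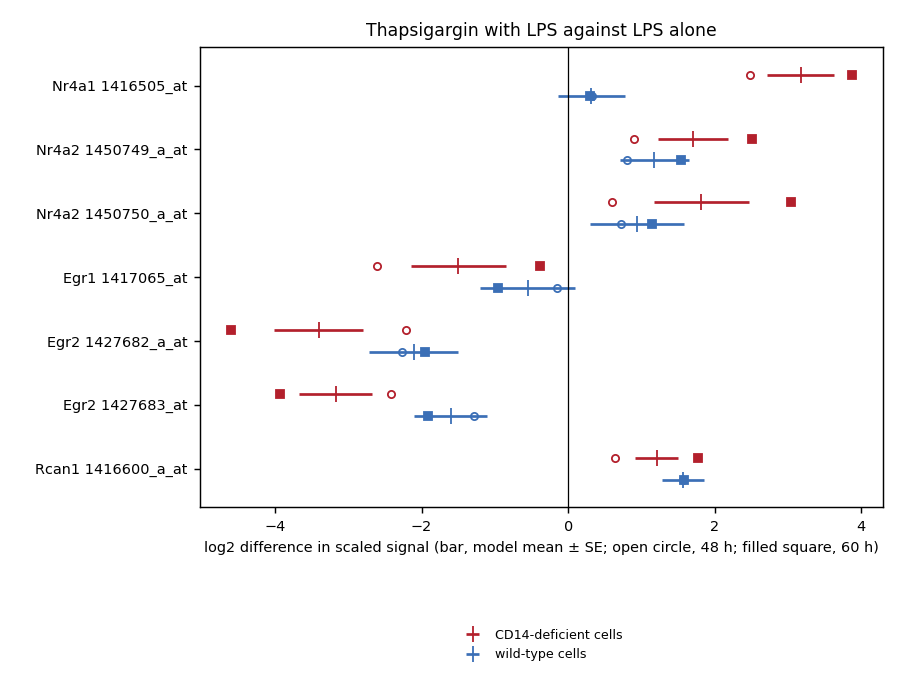
Log2 difference in scaled signal between LPS with thapsigargin and LPS alone for the 7 tested member probe sets, in CD14-deficient cells (upper mark of each pair) and wild-type cells (lower mark); bars are the model mean ± SE, circles 48 h and squares 60 h. Nr4a1 differs most between the genotypes, at 3.18 ± 0.46 in CD14-deficient cells and 0.31 ± 0.46 in wild-type cells, and Rcan1 lies at 1.21 ± 0.29 and 1.57 ± 0.29.

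Compared gene by gene, Nr4a1 was the only one of the 7 tested probe sets that was lower in CD14-deficient than in wild-type cells by the test under LPS alone, and with thapsigargin it was above the wild-type level at both times. Under LPS alone, limma called 1 of the 7 members between CD14-deficient and wild-type cells, Nr4a1, against 4.78% of all probe sets (2.23% higher and 2.55% lower). Nr4a1 was also the 1 member 2-fold apart at both times, against 5.66% of all (3.17% higher and 2.5% lower), and the 1 member whose arrays did not overlap, against 48.3% (27.1% higher and 21.2% lower). For Egr2 the difference under LPS alone was in the direction opposite to a deficit, 1.55 ± 0.61 and 1.42 ± 0.50 on the log2 scale (adjusted p = 0.174 and 0.142). Its signal in CD14-deficient cells was 1.28-fold and 1.56-fold higher at 48 h and 6.67-fold and 4.61-fold higher at 60 h. The differences of Rcan1, −0.15 ± 0.29 (adjusted p = 0.773), and of Egr1, 0.19 ± 0.64 (adjusted p = 0.874), were smaller than their standard errors.

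With LPS and thapsigargin in both genotypes, limma called none of the 7 members and 3 of 11655 probe sets (0.0257%) between CD14-deficient and wild-type cells. An unadjusted p under 0.05 was reached by 0 members and 445 probe sets. Egr1 was 1.78-fold and 1.60-fold lower in CD14-deficient cells (log2 −0.75 ± 0.64), Rcan1 1.79-fold and 1.14-fold lower (−0.51 ± 0.29), and the Nr4a2 and Egr2 probe sets were within 1.40-fold at both times. The adjusted p was 1.00 for each, which does not show that the genotypes are alike. By the 2-fold rule 0 members were apart, against 0.918% of all (0.395% higher), and the arrays overlapped for all 7, while they did not for 41.4% of all (19.6% higher and 21.7% lower).

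CD14-deficient cells with LPS and thapsigargin were also set against wild-type cells under LPS alone. Among the tested probe sets, Nr4a1, Nr4a2 and Rcan1 (1416600_a_at) signals were higher and Egr1 and Egr2 signals lower at both times. None of them passed the test. The dim Rcan1 probe set, 1416601_a_at, was 1.24-fold lower at 48 h. Nr4a1 was 1.89-fold and 1.52-fold higher (log2 0.76 ± 0.46, adjusted p = 0.536). The Nr4a2 probe sets were 2.02-fold to 2.63-fold higher (1.21 ± 0.47 and 1.26 ± 0.64), and Rcan1 was 1.65-fold and 2.62-fold higher (1.06 ± 0.29, adjusted p = 0.257). The Egr2 probe sets were 3.31-fold to 3.63-fold lower (−1.86 ± 0.61 and −1.75 ± 0.50). Egr1 was 1.98-fold lower at 48 h and 3.10-fold lower at 60 h (−1.31 ± 0.64, limma, adjusted p = 0.459). Limma called none of the 7 and 34 of 11655 (0.292%, with 0.0601% higher and 0.232% lower), with 4 members and 1524 probe sets at an unadjusted p under 0.05. By the 2-fold rule 4 of 7 members were apart at both times, against 4.02% of all (1.59% higher and 2.44% lower). The arrays did not overlap for 6 of 7, 4 higher and 2 lower, against 47.5% of all (29.4% higher and 18.1% lower).

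**Figure D3:**
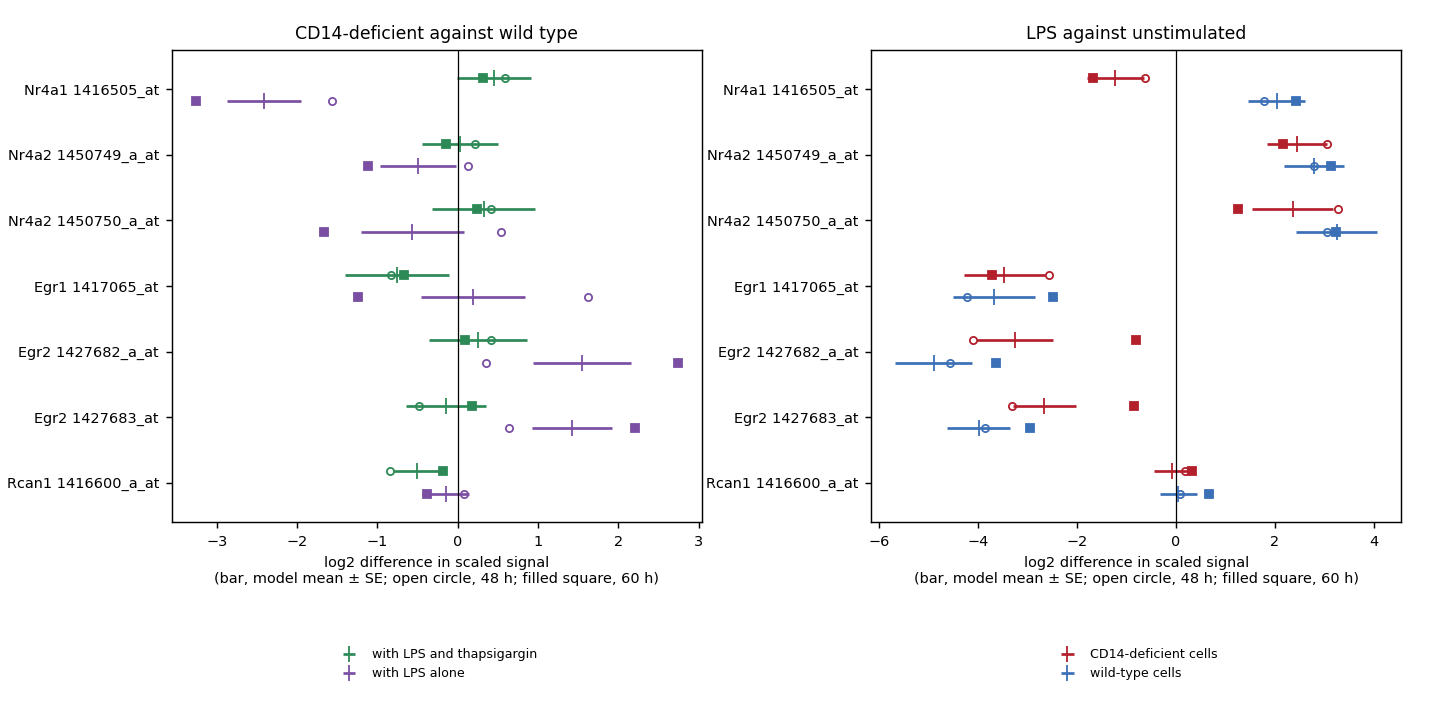
Left, log2 difference in scaled signal between CD14-deficient and wild-type cells, with LPS and thapsigargin (upper mark) and with LPS alone (lower mark); right, between LPS and unstimulated cells in CD14-deficient (upper mark) and wild-type cells (lower mark). Bars are the model mean ± SE, circles 48 h and squares 60 h, and the model mean for LPS refers to 48 h under 1 time shift shared by all stimulated conditions; Nr4a1 reaches −2.41 ± 0.46 between genotypes with LPS alone and 0.45 ± 0.46 with thapsigargin.

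The responses to LPS rest on a single unstimulated array per genotype, shared by both times. The fitted changes refer to 48 h under a shift to 60 h that all stimulated conditions share. The unstimulated cells were harvested at 24 h and the LPS cells at 48 or 60 h, so LPS and time in culture cannot be told apart. This holds for every comparison with unstimulated cells given here, also where a gene is said to be raised or lowered by LPS. In wild-type cells, limma called both Nr4a2 probe sets higher and Egr1 and both Egr2 probe sets lower, 5 of 7 members against 14.9% of all probe sets. Nr4a2 rose by 2.80 ± 0.60 (adjusted p = 0.0349) and 3.25 ± 0.82 (adjusted p = 0.0499) on the log2 scale. Egr1 changed by −3.68 ± 0.82 on that scale (adjusted p = 0.0378), and Egr2 by −4.90 ± 0.77 (adjusted p = 0.0158) and −3.99 ± 0.64 (adjusted p = 0.0160). Nr4a1 was 3.44-fold and 5.40-fold higher, with a log2 change of 2.04 ± 0.58 (adjusted p = 0.0684), and Rcan1 changed by 0.05 ± 0.37. Leaving out 1 array at a time, 0 to 6 of the 7 members were called.

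In CD14-deficient cells limma called none of the 7 members and 2.93% of all probe sets for LPS, while 5 members and 2686 probe sets had an unadjusted p under 0.05. Nr4a2 had log2 changes of 2.44 ± 0.60 (adjusted p = 0.0918) and 2.36 ± 0.82 (adjusted p = 0.166). Egr1 had −3.46 ± 0.82 (adjusted p = 0.0855), and Egr2 had −3.25 ± 0.77 and −2.66 ± 0.64 (adjusted p = 0.0867 for both). Nr4a1 was 1.55-fold and 3.19-fold lower than in unstimulated cells (−1.22 ± 0.58, adjusted p = 0.272). Its LPS response differed between CD14-deficient and wild-type cells by −3.26 ± 0.79, which did not pass (adjusted p = 0.463). Limma called 0 of 11655 probe sets for that difference, with 1 member, Nr4a1, and 977 probe sets at an unadjusted p under 0.05.

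The shared shift between 60 and 48 h was called for 0 members and 0 probe sets in limma. An unadjusted p under 0.05 was reached by 3 members and 1043 probe sets. The members were both Egr2 probe sets, at 1.59 ± 0.43 and 1.16 ± 0.35 on the log2 scale, and Rcan1, at 0.65 ± 0.20 (adjusted p of 0.499 or more). With LPS and thapsigargin, Rcan1 was 2.40-fold higher at 60 h than at 48 h in CD14-deficient cells and 1.53-fold higher in wild-type cells.

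Related genes were described by lists, each gene by its brightest tested probe set. Of 40 symbols listed for other immediate early genes, some of them older names of a listed gene, 33 were tested. In CD14-deficient cells 7 rose with thapsigargin and 0 fell, where 3.68% of all probe sets were called higher and 3.05% lower, with a median log2 change of 0.74 against 0.00 for all probe sets. The largest changes were in Ccn1, a secreted matrix protein, at 3.29 ± 0.43 (limma, adjusted p = 0.0218), the AP-1 subunit Fosl2 at 2.82 ± 0.27 (adjusted p = 0.0143), the zinc-finger factor Klf4 at 2.24 ± 0.29 (adjusted p = 0.0214) and the AP-1 subunit Fosl1 at 2.21 ± 0.36 (adjusted p = 0.0271). In wild-type cells limma called 0 of the 33, with 6 at an unadjusted p under 0.05 and a median of 0.07. Under LPS alone 6 of the 33 were lower in CD14-deficient than in wild-type cells and 0 higher, against 2.55% and 2.23% of all probe sets, led by Fosl2 at −2.24 ± 0.27 and Klf4 at −1.88 ± 0.29. These comparisons share the CD14-deficient LPS arrays with the Nr4a1 results. Over all probe sets, LPS in wild-type cells raised 6.4% and lowered 8.54%. Of the 33 it raised 8 and lowered 3, a share lowered near that of all probe sets, led by Nfil3, a bZIP repressor, at 4.07 ± 0.67 (adjusted p = 0.0178) and Myc at −3.46 ± 0.53 (adjusted p = 0.0150).

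Of 35 genes of the calcineurin and NFAT machinery, 23 were tested and limma called 0 for thapsigargin in CD14-deficient cells. Of these 23, 3 had an unadjusted p under 0.05, and the median log2 change was −0.08. That comparison called 6.73% of all probe sets, so 0 of 23 is no result about the list. LPS in wild-type cells, which raised 6.4% and lowered 8.54% of all probe sets, raised 1 of the 23 (the kinase gene Camk4, 2.09 ± 0.48) and lowered 4, among them Nfatc1, an NFAT gene, at −1.87 ± 0.29 (adjusted p = 0.0151). Of 29 symbols listed for upstream factors, partners and corepressors of Nr4a and Egr, again with older names, 19 were tested. For thapsigargin in CD14-deficient cells 0 were called, against the same 6.73% of all, with 2 at an unadjusted p under 0.05. LPS in wild-type cells raised 0 of the 19 and lowered 3, against the same 6.4% and 8.54% of all probe sets. The change was −2.53 ± 0.62 for Mef2c (adjusted p = 0.0476), a calcium-regulated factor of the MEF2 family. It lowered Nab2, which encodes an Egr corepressor, with a log2 change of −1.59 ± 0.33 (adjusted p = 0.0331). LPS also lowered Rxra, a partner of Nr4a1 and Nr4a2, with a log2 change of −1.36 ± 0.28 (adjusted p = 0.0312). Of 18 NFAT target genes of immune cells, 7 were tested. Ptgs2, which encodes the inducible cyclooxygenase, was the only one of them called with thapsigargin in CD14-deficient cells, at 1.77 ± 0.16 (limma, adjusted p = 0.0141). Over all probe sets 3.68% were called higher there. Ptgs2 was also lower in CD14-deficient than in wild-type cells under LPS, at −1.87 ± 0.16 (adjusted p = 0.0122). Irf4, a factor of dendritic cell and lymphocyte differentiation, was higher, at 2.40 ± 0.38 (adjusted p = 0.0336). Of all probe sets, 2.55% were called lower and 2.23% higher in that comparison. Single calls among 7 genes do not describe the list.

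**Figure D4:**
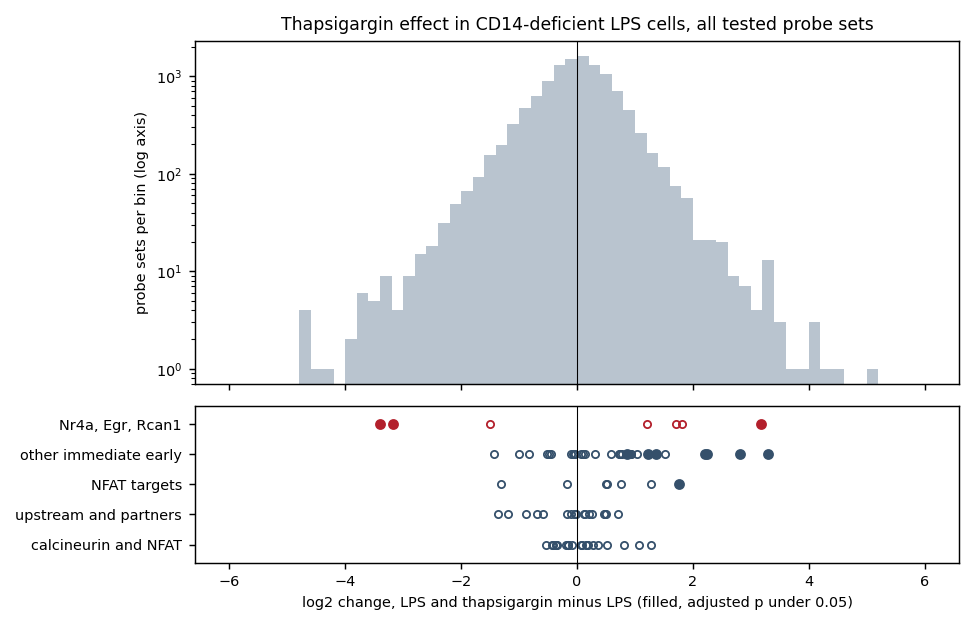
Top, number of probe sets (log axis) by log2 change between LPS with thapsigargin and LPS alone in CD14-deficient cells, over the 11655 tested; bottom, the 7 tested member probe sets and the tested genes of 4 lists on the same axis, filled where the adjusted p is under 0.05. Nr4a1 (3.18) and the Egr2 probe sets (−3.40 and −3.18) lie in opposite tails, and 7 of the 33 other immediate early genes are filled, all to the right of 0.

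The genes whose log2 signal most resembled each member over the 10 arrays are given as a description, over arrays that share genotypes and treatments. For Nr4a1 they were Trit1, Polr3f and Smim11 (Pearson r of 0.98, 0.97 and 0.97). For Nr4a2 they were Zfp574, Fxr2 and Wwtr1 (0.99, 0.98 and 0.98), and for Egr2 Hint1, Leprot and Rab31 (0.99 each). For Egr1 they were Otud6b, Prkx and Rnd3 (0.96 each), and for Rcan1 Emc6, Cops8 and Keap1 (0.96, 0.96 and 0.95). No member was among the genes named for another member, because members were left out of this search.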

How the data were processed

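RNA from 10 cultures was hybridised to single-colour Affymetrix arrays, 1 array per condition. The deposited values are a linear signal intensity per probe set, made with MAS5 per the submitters' processing notes. Its version, scaling target and detection calls were not given in those sources. Trimmed by 2% at each end, column means spanned 444 to 553 (ratio 1.25), and each array was scaled to 509. A floor of 13.4, the 25th percentile over all arrays, was set before log2. Of 22690 probe sets, 20393 had 1 gene symbol, 691 several and 1606 none. Probe sets with 1 symbol and a scaled signal above the pooled median, 99.2, on at least 2 arrays were tested (11655 probe sets of 7477 genes).

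One linear model per probe set was fitted in limma 3.58.1 (R 4.3.3) to all 10 arrays, with 6 genotype-treatment levels plus a 60 h term. The eBayes step used an intensity trend (3 residual and 2.98 prior degrees of freedom), and two-sided p-values were adjusted by Benjamini-Hochberg over all tested probe sets, with a threshold of 0.05. With no condition repeated, the residual spread is the departure of the 4 stimulated conditions from a common time shift. P-values thus cover neither cultures nor mice, and the number of arrays limits the precision. Errors are standard errors of the model. The script was tested on simulated data. The members and gene lists were chosen with earlier results of these data known. The text names all members, the 3 genes most like each tested member by Pearson r, and at most 4 genes per list and comparison by size of change among those called. Promoter windows come from the RefSeq table for GRCm38.p6, and none was used for Egr1 and Egr3. Alternatives covered scaling, floor, filter, trend, time term, probe set choice and left-out arrays.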

Additional observations from a re-analysis of the deposited data

Results flagged for a closer look

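Nr4a1 moved in opposite directions with LPS in the 2 genotypes. Its log2 difference from the unstimulated array was −0.63 at 48 h and −1.67 at 60 h in CD14-deficient cells, and 1.78 and 2.43 in wild-type cells. Tested as a difference of responses in limma, this gave −3.26 ± 0.79 on the log2 scale and an adjusted p of 0.463, with 1 array per condition. The unstimulated arrays were harvested at 24 h, so within each genotype LPS and time in culture cannot be told apart.

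The genotype difference of Nr4a1 also had opposite signs by treatment. CD14-deficient minus wild type was 0.59 at 48 h and 0.31 at 60 h with LPS and thapsigargin, and −1.57 and −3.26 with LPS alone. The corresponding limma interaction was 2.86 ± 0.65 (adjusted p = 0.240). Both patterns draw on the same CD14-deficient LPS arrays.

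Egr3, below the filter, had genotype differences of −0.30 at 48 h and −1.44 at 60 h with LPS and thapsigargin, and 0.27 and 1.60 with LPS alone. The 60 h value with thapsigargin is a bound, since the CD14-deficient signal was under the floor and was raised to it. In the fit without the filter, which holds that floored value, the difference of thapsigargin effects was −1.81 ± 0.69 on the log2 scale (limma, adjusted p = 0.479).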

How the results depend on the processing

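No paired analysis was possible because the labels give no replicate numbers and each condition had 1 array. Over 1408 comparisons of a member value with its value under an alternative, 1204 kept direction and call, 83 gained a call, 68 lost one, 43 changed sign and 10 moved by more than the spread. Leaving out both arrays of lowest cRNA yield, which leaves 1 residual degree of freedom, raised the number of the 7 member probe sets called to 6 for thapsigargin in CD14-deficient cells (3 in the full fit), 3 for thapsigargin in wild-type cells (0), 5 for the difference of these effects (0), 5 for CD14-deficient against wild type under LPS (1), 1 with LPS and thapsigargin (0), 5 for CD14-deficient cells with thapsigargin against wild-type LPS (0), 5 for LPS in CD14-deficient cells (0) and 4 for the difference of the LPS responses (0). Without the filter, which adds dim probe sets to the adjustment, 0 members were called for thapsigargin in CD14-deficient cells, for CD14-deficient against wild type under LPS and for LPS in wild-type cells. Unscaled values called 0 under LPS between genotypes, and 1 probe set per gene called 3 for LPS in wild-type cells (5 in the full fit), where fewer probe sets are tested.

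Leaving out 1 array at a time gave 0 to 6 called members for thapsigargin in CD14-deficient cells, CD14-deficient cells with thapsigargin against wild-type LPS and LPS in wild-type cells, 0 to 5 for thapsigargin in wild-type cells, CD14-deficient against wild type under LPS and LPS in CD14-deficient cells, 0 to 4 for the difference of the thapsigargin effects and 0 to 1 for that of the LPS responses. Over all probe sets, the calls for thapsigargin in CD14-deficient cells ran from 0 to 4443 (784 in the full fit), for thapsigargin in wild-type cells from 0 to 690 (0), for genotype under LPS from 1 to 4796 (557) and for LPS in wild-type cells from 57 to 4790 (1741). Leaving out an array lowers the residual degrees of freedom and also takes the time departure of its condition out of the residual spread. For genotype under LPS, the fits without a CD14-deficient LPS array called 949 higher and 941 lower, or 2644 higher and 2152 lower. Each fit without another stimulated array called 0 higher and 1 to 10 lower. The cause of these shifts in calls was not tested separately.

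The fit on the 8 stimulated arrays gives no LPS response against unstimulated cells, and the fit with no term for time gives no shift to 60 h. Signs changed for values not called in the full fit. Without the arrays of lowest yield, Rcan1's difference of thapsigargin effects became 0.21, Egr1's genotype difference under LPS −0.52, its difference of LPS responses −0.49 and the shift to 60 h of Nr4a2 (1450750_a_at) 0.52. Without scaling, which moved the median of all probe sets by −0.13 for LPS in wild-type cells, 0.21 for the difference of LPS responses and 0.11 for the shift to 60 h, Rcan1 read −0.0759 for LPS in wild-type cells, 0.00745 in CD14-deficient cells and 0.0834 for their difference. Rcan1 in CD14-deficient cells under LPS read 0.25 with no term for time, and Nr4a1's shift to 60 h −0.0050 with quantile normalization. Leaving out 1 array at a time, ranges that cross 0 were, in log2, Egr1 −1.003 to 1.38, Nr4a2 (1450749_a_at) −1.30 to 0.31, Nr4a2 (1450750_a_at) −1.77 to 0.65, Rcan1 −0.49 to 0.20 for the genotype difference under LPS, and Egr1 −0.98 to 1.41, Nr4a2 (1450749_a_at) −1.16 to 0.45, Nr4a2 (1450750_a_at) −2.10 to 0.32, Rcan1 −0.47 to 0.22 for the difference of the LPS responses, and Egr1 −2.14 to 0.25, Nr4a2 (1450749_a_at) −0.28 to 1.33, Nr4a2 (1450750_a_at) −0.33 to 2.09, Rcan1 −0.77 to 0.0449 for the difference of the thapsigargin effects, and Egr1 −1.28 to 0.17, Nr4a1 −0.0275 to 0.65 for thapsigargin in wild-type cells, and Egr2 (1427682_a_at) −0.20 to 0.71, Egr2 (1427683_at) −0.73 to 0.43, Nr4a2 (1450749_a_at) −0.48 to 0.54, Nr4a2 (1450750_a_at) −0.22 to 0.86 for the genotype difference under LPS and thapsigargin, and Nr4a1 −0.0276 to 0.54, Nr4a2 (1450750_a_at) −0.47 to 0.41 for the shift to 60 h, and Rcan1 −0.51 to 0.18 for LPS in CD14-deficient cells, and Rcan1 −0.0353 to 0.15 for LPS in wild-type cells.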
